A study of Homo sapiens with 6 samples.

Results

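EGR1, EGR2, EGR3, IER2, IER3, IER5, KLF4, KLF6, KLF10 and NR4A1 are early response genes, and their mRNA levels were compared between TAK1 knockdown and control RD cells. The rule that finds them uses the gene symbol alone, but the list was drawn up with earlier results of these data known. Each of the 10 symbols was found once among the 58735 rows of the count table, and all 10 had enough reads to be among the 15935 genes tested. RD is an established human embryonal rhabdomyosarcoma (ERMS) cell line, a tumor line that carries skeletal muscle transcription factors. The cells were transduced with lentiviral particles carrying either scrambled shRNA (n = 3) or TAK1 shRNA (n = 3), and poly(A) RNA was sequenced. These libraries carry a single TAK1 hairpin, TAK1 shRNA #1, so effects of TAK1 loss and other effects of this hairpin cannot be told apart. The labels do not say whether the 3 libraries of a group came from separate cultures, so p-values measure the spread between these libraries, which may be technical.

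Early response genes are transcribed within minutes of a growth factor, stress or cytokine signal, without need for new protein synthesis. Serum response factor (SRF), bound to CArG boxes together with ETS-type ternary complex factors, passes the signal of the ERK pathway to many of them. EGR proteins are zinc finger activators that bind GC-rich sites and are held in check by the corepressors NAB1 and NAB2. KLF proteins bind GC-rich and CACCC elements, NR4A1 is an orphan nuclear receptor, and the IER genes are named for their immediate early induction rather than for a shared protein fold. TAK1 is a kinase upstream of the JNK, p38 and NF-kB pathways, which also reach early response promoters.

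The promoters of EGR1 and EGR2 are shown because they hold CArG boxes, the SRF element, which few promoters contain. Promoters were the 500 bases before each RefSeq transcription start in GRCh38.p14, and 7 of the 10 genes had an entry. EGR3, IER3 and KLF10 had none. The 7 genes had 10 such windows, and a gene was counted for a motif if any of its windows matched. Capitals mark CArG boxes, which are a run of A and T between CC and GG, and each stretch is read 5′ to 3′ on the strand of its gene.
EGR1 distal stretch, chr5:138465049-138465129, GRCh38, plus strand: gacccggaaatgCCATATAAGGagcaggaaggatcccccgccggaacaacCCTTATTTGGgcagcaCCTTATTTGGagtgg
EGR1 stretch near the start, chr5:138465359-138465418, GRCh38, plus strand: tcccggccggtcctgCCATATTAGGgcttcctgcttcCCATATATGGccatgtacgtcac
EGR2 stretch near the start, chr10:62816423-62816452, GRCh38, minus strand: gccctgttcctcagtCCATATATGGgcagc
The EGR1 stretches lie 430 to 350 and 120 to 61 bases before the start, and the EGR2 stretch lies 86 to 57 bases before the start at position 62816366. None of the stretches overlaps an annotated exon. The box CCATATATGG stands in both genes.

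EGR1 had 5 CArG boxes, beginning 418, 380, 364, 105 and 83 bases before its start. Among the 35116 promoter windows in the table, 853 (2.43%) had a CArG box on either strand, and the EGR1 window was the 1 window with 3 or more. EGR2 had 2 boxes, beginning 370 and 71 bases before the start of the third of its annotated transcripts. The other 5 genes with an entry had none in this window, which says only that these letters do not occur there.

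**Figure D1:**
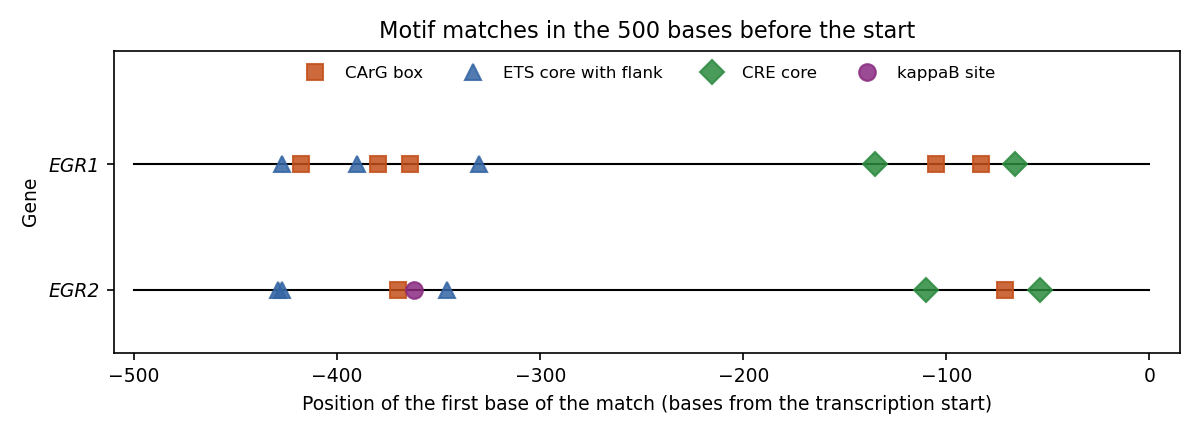
Matches to 4 motifs in the 500 bases before the transcription start of EGR1 and EGR2, drawn by the distance of the first base of each match from the start, in bases. EGR1 shows 5 CArG boxes (squares) with ETS matches (triangles) among the distal ones, and EGR2 shows 2 CArG boxes.

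Among the other motifs, the ETS core was found in the most genes. The ETS core CCGGAA, searched on both strands, occurred in the promoters of EGR1, EGR2, IER2, IER5 and NR4A1, 5 of 7 genes, and in 20.3% of all windows. The CRE core TGACG occurred in EGR1, EGR2, IER2 and KLF4 and in 31.5% of all windows, whereas the full CRE TGACGTCA, which contains this core, occurred in 0 of the 7 genes and in 1.98% of windows. An EGR site, GCGTGGGCG or GCGGGGGCG, was found in KLF6, beginning 65 bases before its start, and in 7.09% of windows. An AP-1 site, TGACTCA or TGAGTCA, occurred in EGR2 and KLF4 (7.36% of windows), and a kappaB site occurred in EGR2, IER2 and NR4A1 (9.71%). The TATAAA box was in 0 of 7 genes and in 21.2% of windows. The shares over all promoters count windows, not genes. Of the 10 windows of the 7 genes, 6 held the ETS core, 4 the CRE core, 3 a kappaB site, 2 an AP-1 site and 1 an EGR site. These matches are counts of letters and were not tested for binding or against the expression values.

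In TAK1 knockdown cells the 10 genes all had lower fitted levels than in controls, and 5 of them passed the test: EGR1, KLF4, IER2, KLF6 and IER5. Calls needed an edgeR adjusted p under 0.05 together with a log2 fold change of 0.25 or more in either direction. On the log2 scale the called genes fell by 0.43 to 1.32, and 0 genes were called higher. At an unadjusted p under 0.05 the counts were 6 lower and 0 higher, and DESeq2 and limma-voom each called 5 lower and 0 higher. Among all genes tested, 1805 (11.3%) were called lower and 1879 (11.8%) higher, so 51.0% of calls were higher, and 62.9% with library size alone. The groups did not overlap for 6 of the 10 genes, all lower in knockdown cells, against 22.2% of genes tested that were lower and 21.6% that were higher without overlap. The median log2 fold change was -0.69 over the 10 genes and 0.02 over all genes tested. In bulk RNA, fewer cells that express a gene and less RNA per cell cannot be told apart.

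Levels are given as CPM, a gene's counts relative to the library size scaled by the trimmed mean of M-values, and differences as log2 fold changes of TAK1 shRNA minus scrambled shRNA. MAP3K7, which encodes TAK1, had 77.9, 76.5 and 77.6 CPM in the scrambled libraries and 30.5, 33.6 and 29.9 CPM in the TAK1 shRNA libraries. The groups did not overlap, and the log2 fold change was -1.30 (SE 0.062, adjusted p = 4.45e-14, edgeR). Total counts ran from 28839898 to 34469323 per library, so 1 read was worth 0.0283 to 0.0352 CPM. The share of mitochondrially encoded counts was 0.991 to 1.13% in scrambled and 1.22 to 1.33% in TAK1 shRNA libraries, and its part in the results was not tested. The muscle transcription factors MYOD1 (263 ± 8.03 CPM, SD, n = 3) and MYOG (141 ± 6.07 CPM) were high in control cells, while MYF5 was at 0 reads in all libraries.

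**Figure D2:**
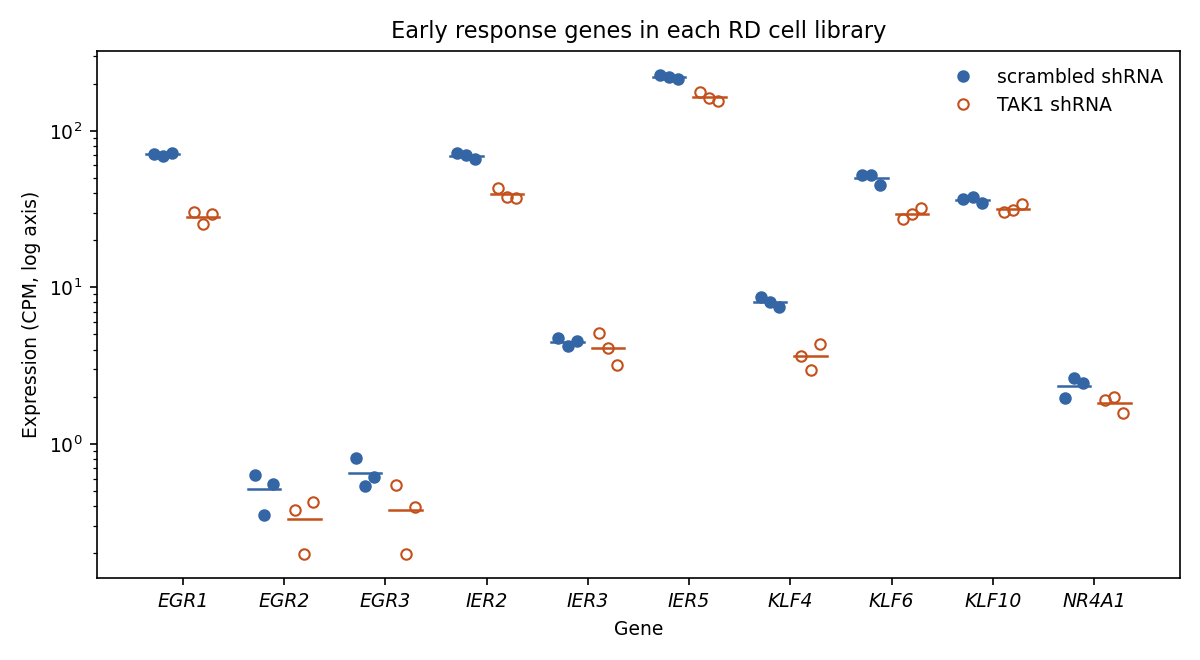
CPM of the 10 genes in each library on a log axis, with filled points for scrambled shRNA, open points for TAK1 shRNA and a bar at each group mean (n = 3). EGR1, IER2, IER5, KLF4, KLF6 and KLF10 show no overlap between the groups, and EGR2 and EGR3 lie below 1 CPM.

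EGR1, the best studied zinc finger factor of the family, had the lowest log2 fold change of the 10 genes. Its gene (ENSG00000120738.8) occupies 138465479 to 138469303 on the plus strand of chromosome 5. The scrambled libraries had 71.1, 68.9 and 71.8 CPM and the TAK1 shRNA libraries 30.3, 25.3 and 29.3 CPM. The lowest control library was thus far above the highest knockdown library. The mean went from 70.6 ± 1.49 to 28.3 ± 2.67 CPM (SD, n = 3), 40.1% of control, with a log2 fold change of -1.32 (SE 0.068, 95% interval -1.46 to -1.18, edgeR adjusted p = 1.71e-13). A share of 0.414% of the genes tested had a log2 fold change lower than that of EGR1.

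EGR2 and EGR3, close relatives that bind the same kind of GC-rich site as EGR1, had few reads. EGR2 (ENSG00000122877.18, chromosome 10, 62811996 to 62819167, minus strand) had 18, 11 and 17 reads in scrambled and 11, 7 and 14 reads in TAK1 shRNA libraries. EGR3 (ENSG00000179388.9) had 23, 17 and 19 reads against 16, 7 and 13. The groups overlapped for both genes. The log2 fold changes were -0.62 (95% interval -1.60 to 0.37) for EGR2 and -0.80 (-1.73 to 0.14) for EGR3, with edgeR adjusted p = 0.352 and 0.189. Both intervals include 0 and also reach past the EGR1 value, so neither no change nor a change as large as that of EGR1 lies outside them. An exon of EGR2 overlaps an exon of ENSG00000289487, annotated on the same strand, and the sources used here do not say how shared reads were counted.

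The 3 IER genes, which share a name and an induction pattern, separated into a large, a moderate and an undetected difference. IER2, a small nuclear protein, had 71.6, 69.9 and 66.0 CPM in scrambled and 43.2, 37.8 and 37.0 CPM in TAK1 shRNA libraries. Every knockdown library was below every control. The mean went from 69.2 ± 2.89 to 39.3 ± 3.35 CPM (SD, n = 3), with a log2 fold change of -0.82 (SE 0.065, 95% interval -0.95 to -0.68, edgeR adjusted p = 4.23e-10). IER2 (ENSG00000160888.7) lies on the plus strand of chromosome 19 from 13150411 to 13154911.

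IER5, an IER2 relative known to act with heat shock factor 1, was the most abundant of the 10 genes. The scrambled libraries had 228, 222 and 214 CPM, and the TAK1 shRNA libraries had 176, 161 and 156 CPM. The groups did not overlap, though they lay closer together than those of IER2. The mean was 221 ± 6.86 CPM in control and 164 ± 10.2 CPM in knockdown cells (SD, n = 3), 74.2% of control, with a log2 fold change of -0.43 (SE 0.050, 95% interval -0.53 to -0.33, edgeR adjusted p = 2.06e-07). IER5 (ENSG00000162783.11) is a gene of 1 exon on chromosome 1, from 181088700 to 181092900 on the plus strand.

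IER3, an NF-kB-induced gene that modulates apoptosis, showed no detectable change. It had 4.71, 4.19 and 4.51 CPM in scrambled and 5.10, 4.08 and 3.18 CPM in TAK1 shRNA libraries, so the highest and the lowest values were both in knockdown cells. The log2 fold change was -0.12 (95% interval -0.47 to 0.23, edgeR adjusted p = 0.629). Without TAK1 shRNA replicate 3, its direction turned (0.02, edgeR adjusted p = 0.942). The interval leaves room for a fall as large as the -0.43 of IER5, but not for one as large as that of IER2. IER3 (ENSG00000137331.12, chromosome 6, 30743199 to 30744548, minus strand) overlaps IER3-AS1 and HCG20 on the opposite strand, and these antisense genes together had few reads: 6 against 8 for IER3-AS1 and 0 against 7 for HCG20, summed over 3 libraries.

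The KLF genes also ranged from a large to a small difference. KLF4, a pluripotency factor that also represses or activates growth genes by context, had 8.72, 8.001 and 7.46 CPM in scrambled and 3.66, 2.97 and 4.36 CPM in TAK1 shRNA libraries. No values overlapped. Its mean went from 8.06 ± 0.633 to 3.66 ± 0.695 CPM (SD, n = 3), 45.5% of control, with a log2 fold change of -1.14 (SE 0.15, 95% interval -1.44 to -0.83, edgeR adjusted p = 1.21e-06). The interval overlaps that of EGR1. KLF4 (ENSG00000136826.15) lies on chromosome 9 from 107484852 to 107490482 on the minus strand.

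KLF6, a widely expressed zinc finger factor, had 52.5, 52.4 and 45.2 CPM in scrambled and 27.3, 29.4 and 32.1 CPM in TAK1 shRNA libraries. The groups were again apart. The mean went from 50.003 ± 4.18 to 29.6 ± 2.42 CPM (SD, n = 3), with a log2 fold change of -0.76 (SE 0.074, 95% interval -0.91 to -0.60, edgeR adjusted p = 1.43e-08). KLF6 (ENSG00000067082.15) lies on chromosome 10 from 3775996 to 3785281 on the minus strand.

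KLF10, also called TIEG1 for its early induction by TGF-beta, had 36.8, 37.5 and 34.8 CPM in scrambled and 30.1, 31.4 and 34.1 CPM in TAK1 shRNA libraries. The groups did not overlap, but the highest knockdown library was just under the lowest control. With a mean of 36.4 ± 1.41 against 31.9 ± 2.08 CPM (SD, n = 3), the log2 fold change was -0.19 (SE 0.069, 95% interval -0.33 to -0.047, edgeR adjusted p = 0.0371). KLF10 (ENSG00000155090.15) passed the threshold on p but not the one on fold. Without TAK1 shRNA replicate 3 it was called (-0.25, edgeR adjusted p = 0.012).

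NR4A1, a nuclear receptor also known as NUR77, was low and not called. It had 1.97, 2.64 and 2.43 CPM in scrambled and 1.92, 1.98 and 1.58 CPM in TAK1 shRNA libraries. The highest knockdown value lay just above the lowest control value. The log2 fold change was -0.37 (SE 0.22, 95% interval -0.83 to 0.098, edgeR adjusted p = 0.23). NR4A1 (ENSG00000123358.20, chromosome 12, 52022832 to 52059507, plus strand) shares exonic sequence with an antisense gene on the opposite strand. Exons of EGR3, IER2 and KLF4 also overlap an annotated gene on the opposite strand, and without knowledge of strand use in the counting, reads of the 2 partners cannot be told apart. EGR1, IER5, KLF6 and KLF10 have no such overlap.

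**Figure D3:**
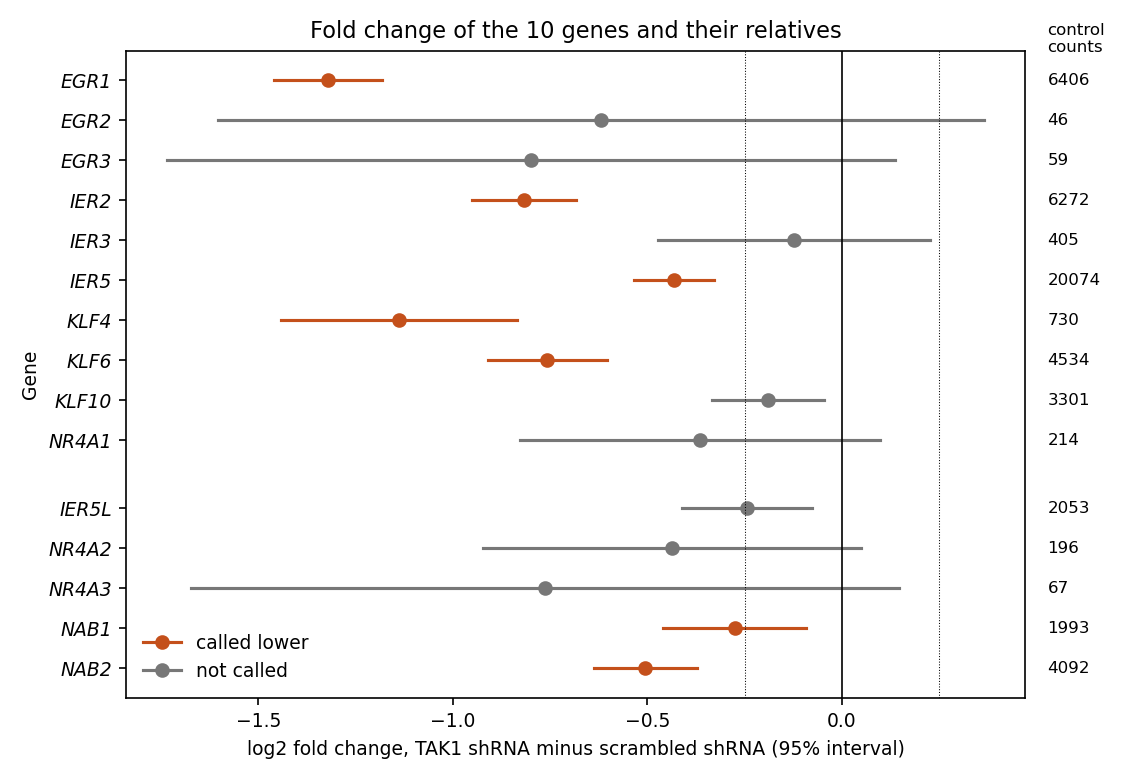
Log2 fold change (TAK1 shRNA minus scrambled shRNA) with its 95% interval for the 10 genes and, below the gap, 5 relatives and corepressors, with the summed control counts (3 libraries) at the right and dotted lines at the fold threshold of 0.25. EGR2 and EGR3, with 46 and 59 control counts, have the widest intervals of the 10 genes, whereas that of IER3 crosses 0 with 405 counts.

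Most uncalled genes had larger standard errors than the called genes, but depth as a reason for the calls was not tested. Of the 5 uncalled genes, EGR2, EGR3, NR4A1 and IER3 had standard errors of 0.48, 0.45, 0.22 and 0.17 on the log2 scale, against 0.050 to 0.15 for the called genes. KLF10 differed in this, with a standard error of 0.069 that is close to the 0.068 of EGR1. The 0.17 of IER3 was close to the 0.15 of KLF4, which was called. The log2 fold changes of IER3 (-0.12) and KLF10 (-0.19) were under the fold threshold in size, whatever their standard errors. The intervals of EGR1 and KLF10, similar in width, did not overlap.

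**Figure D4:**
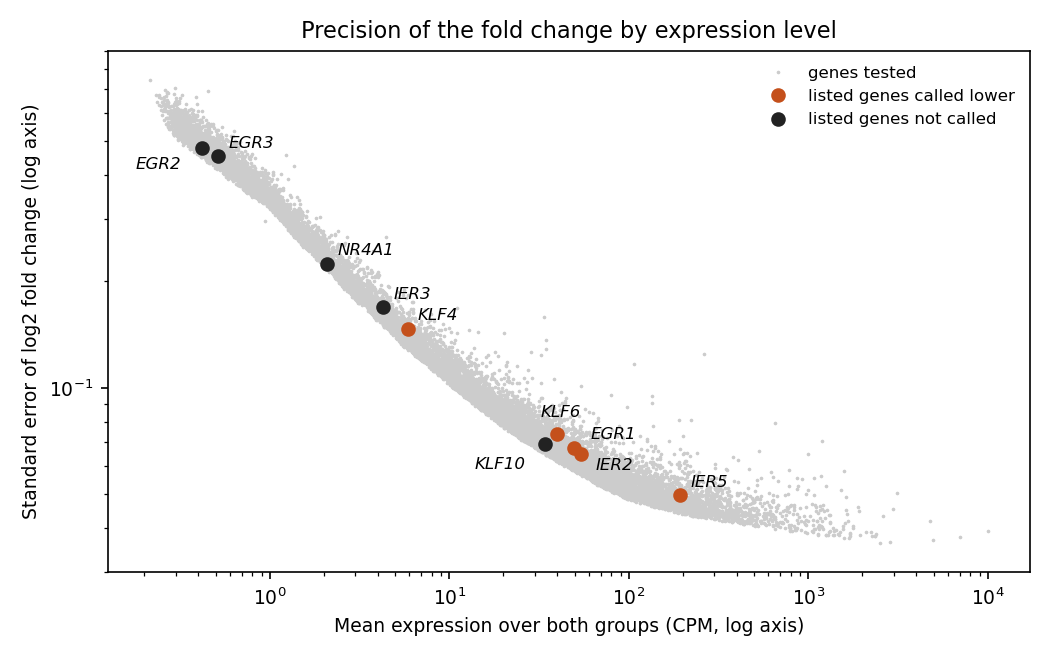
Standard error of the log2 fold change against mean CPM over both groups, on log axes, for all genes tested (grey) and the 10 genes (orange where called lower, black where not called). The 10 genes follow the band of all genes tested, with EGR2 and EGR3 at the imprecise end and KLF10 beside called genes.

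Ratios within a library do not depend on its scaling and set the relatives beside each other. The 6 ratios were chosen after the values were seen, so they are a description. KLF6 had 1.37 ± 0.067 times the CPM of KLF10 in control and 0.927 ± 0.018 times in knockdown cells (SD, n = 3). CPM takes no account of transcript length, and per kilobase of the canonical transcript KLF10 was above KLF6 in both groups. The KLF4 to KLF10 ratio went from 0.222 ± 0.013 to 0.115 ± 0.018. The IER2 to IER5 ratio went from 0.312 ± 0.0041 to 0.239 ± 0.0057, and the EGR1 to IER2 ratio from 1.022 ± 0.057 to 0.721 ± 0.064. All 6 ratios, with IER2 to IER3 (15.5 to 9.79) and KLF4 to KLF6 (0.161 to 0.124), separated the groups without overlap. The exact two-sided permutation p was 0.1 for each (0.1 adjusted over the 6), the smallest that 3 against 3 libraries can give.

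Per kilobase of the canonical transcript, IER5 had the highest level in control cells (52.7 ± 1.63 CPM per kb, SD, n = 3), followed by IER2 (32.8 ± 1.37) and EGR1 (22.5 ± 0.474). KLF10 (12.5 ± 0.484) and KLF6 (10.9 ± 0.910) came next, and their ranges, 11.9 to 12.9 and 9.84 to 11.4, did not overlap. IER3 (3.61 ± 0.212), KLF4 (2.75 ± 0.216) and NR4A1 (0.944 ± 0.137) were lower. EGR2 (0.172 ± 0.049) and EGR3 (0.145 ± 0.031) were lowest and did not differ beyond their spread. In knockdown cells the order was the same except that KLF10 (10.9 ± 0.714) stood above EGR1 (9.02 ± 0.850), with ranges of 10.3 to 11.7 and 8.06 to 9.67.

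The replicates of the knockdown group did not vary alike across the genes. TAK1 shRNA replicate 1 had the highest value of its group for EGR1, IER2, IER3, IER5 and EGR3 and the lowest for KLF6 and KLF10. The chi-square per degree of freedom between replicates over all genes was 2.88 to 4.98 among scrambled and 6.10 to 8.74 among TAK1 shRNA libraries, so no libraries agreed within counting error.

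The genes share a compact structure, a feature that the rule by symbol did not use. In GENCODE 44, 9 of the 10 genes span at most 10 kb, against 22% of the genes tested, and their spans run from 1350 to 36676 bp beside a median of 31077 bp. The canonical transcripts of 8 genes have 4 exons or fewer, against 25.4% of genes tested, whose median is 8. NR4A1, with the longest span, has 7 exons. The comparison covers the 13873 genes tested (87.1%) whose name matched the annotation.

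Among family relatives and corepressors, both NAB genes were called lower. Of 6 listed genes 5 were tested, and 2 were called lower and 0 higher (0 also at an unadjusted p under 0.05). Their median log2 fold change was -0.44. The same calls took in 11.3% (lower) and 11.8% (higher) of all genes tested. NAB2, a corepressor that EGR1 itself induces, fell from 45.1 ± 0.947 to 31.8 ± 0.977 CPM (SD, n = 3, log2 fold change -0.50, edgeR adjusted p = 8.56e-07). NAB1 had a log2 fold change of -0.27 (edgeR adjusted p = 0.019), and its call was lost without scrambled replicate 1, scrambled replicate 3 or TAK1 shRNA replicate 1 (adjusted p = 0.088, 0.0907 and 0.099) and with library size alone (adjusted p = 0.0568). The uncalled relatives were IER5L (-0.24, adjusted p = 0.0218), NR4A2 (-0.44, adjusted p = 0.167) and NR4A3 (-0.76, adjusted p = 0.199). IER5L sat next to the fold threshold and was called without scrambled replicate 2 (-0.26), scrambled replicate 3 (-0.27) or TAK1 shRNA replicate 1 (-0.29), and with no filter on low counts (-0.25). EGR4 had 29 reads in scrambled and 13 in TAK1 shRNA libraries and was not tested.

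Other KLF genes, by contrast, had a median near that of all genes. Of 14 listed, 11 were tested, with 1 called lower, 0 called higher (1 at an unadjusted p under 0.05) and a median log2 fold change of -0.03. Among all genes tested, 11.3% were called lower and 11.8% higher. The called gene was KLF3, a repressor of the family, at 80.2 ± 1.42 against 66.7 ± 2.05 CPM (SD, n = 3, log2 fold change -0.27, edgeR adjusted p = 3.30e-04). It fell below the fold threshold without TAK1 shRNA replicate 2 (-0.25), with upper-quartile normalization (-0.25) and with library size alone (-0.22).

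Among SRF, its coactivators and the ETS factors that act at early response promoters, 6 of 11 genes were called lower and 0 higher. At an unadjusted p under 0.05, 0 were higher too, and the median was -0.25. Beside this, 11.3% of all genes tested were called lower and 11.8% higher. SRF itself had 72.4 ± 2.65 CPM in control and 71.1 ± 6.85 CPM in knockdown cells (SD, n = 3, log2 fold change -0.03, edgeR adjusted p = 0.787), and its sign turned with scaling by library size alone (0.02) and without scrambled replicate 1 (0.0016) or TAK1 shRNA replicate 3 (0.02). ELK1, a ternary complex factor, had a log2 fold change of -0.04 (adjusted p = 0.647), and 0.0063 with library size alone. ELK4 was lower without overlap but just under the fold threshold (-0.248, edgeR adjusted p = 0.00109), so it was not called. The called genes were ETS2 (-0.65, adjusted p = 9.31e-06), ETV4 (-0.52, adjusted p = 7.38e-09), the ternary complex factor ELK3 (-0.45, adjusted p = 1.74e-07), ETS1 (-0.35, adjusted p = 4.16e-06), the SRF coactivator MRTFB (-0.27, adjusted p = 0.00369) and ETV5 (-0.25, adjusted p = 2.87e-04). MRTFB lost its call without scrambled replicate 3 (-0.20) or TAK1 shRNA replicate 1 (-0.24), and ETV5, at the fold threshold, without scrambled replicate 1 (-0.24), scrambled replicate 3 (-0.25) or TAK1 shRNA replicate 1 (-0.24). ETV5 also lost its call with upper-quartile normalization (-0.24), library size alone (-0.20) and the filter of 10 counts in every library (-0.25). MRTFB lost its call with library size alone (-0.22), which left 4 genes of this list called lower. DESeq2 and the fit with no filter on low counts each called 7 lower.

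Other early response genes were called in both directions, more often lower. Of 31 genes, all tested, 13 were called lower and 3 higher. Over all genes tested, 11.3% were called lower and 11.8% higher. The list had a median log2 fold change of -0.12. The lowest called values were those of ARC, a synaptic early gene (-1.70, 5.22 ± 0.016 against 1.61 ± 0.323 CPM, SD, n = 3, edgeR adjusted p = 8.37e-08), DUSP6, an ERK phosphatase (-1.07, 547 ± 7.21 against 261 ± 2.32 CPM, adjusted p = 1.31e-15), and MAFF, a small MAF factor (-0.85, adjusted p = 6.77e-05). The 3 genes called higher were the antiproliferative BTG2 (0.68, adjusted p = 8.50e-07), the AP-1 subunit JUND (0.54, adjusted p = 1.29e-07) and MYC (0.33, adjusted p = 1.66e-06).

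Genes reported elsewhere as EGR1 targets were also called more often lower than higher. Of 14, all tested, 6 were called lower and 1 higher, with a median of -0.19. The shares over all genes tested were 11.3% lower and 11.8% higher. Among those called lower were the growth factor PDGFB (-1.61, edgeR adjusted p = 6.69e-05) and the urokinase PLAU (-1.34, 326 ± 9.79 against 129 ± 5.05 CPM, SD, n = 3, adjusted p = 3.61e-16). NAB2, given above, belongs to both lists. IGF2 was called (-0.28, adjusted p = 0.00274) although its groups overlapped, and it fell under the fold threshold without scrambled replicate 1 (-0.24) or TAK1 shRNA replicate 2 (-0.19) and with library size alone (-0.24). With DESeq2 the IGF2 call was lost on significance (-0.29, adjusted p = 0.128). FN1, which encodes fibronectin, rose from 1005 ± 14.3 to 1382 ± 98.5 CPM (0.46, adjusted p = 1.73e-08). Binding of EGR1 to these genes was not measured here.

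Heat shock genes were listed because of the known role of IER5. Of 10 genes 9 were tested, with 2 called lower, 0 called higher (0 also at an unadjusted p under 0.05) and a median of -0.17. For comparison, 11.3% of all genes tested were called lower and 11.8% higher. HSPH1, a co-chaperone of the HSP70 system, had a log2 fold change of -0.70 (edgeR adjusted p = 2.12e-09), and BAG3, a co-chaperone of selective autophagy, one of -0.65 (adjusted p = 1.44e-09).

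**Figure D5:**
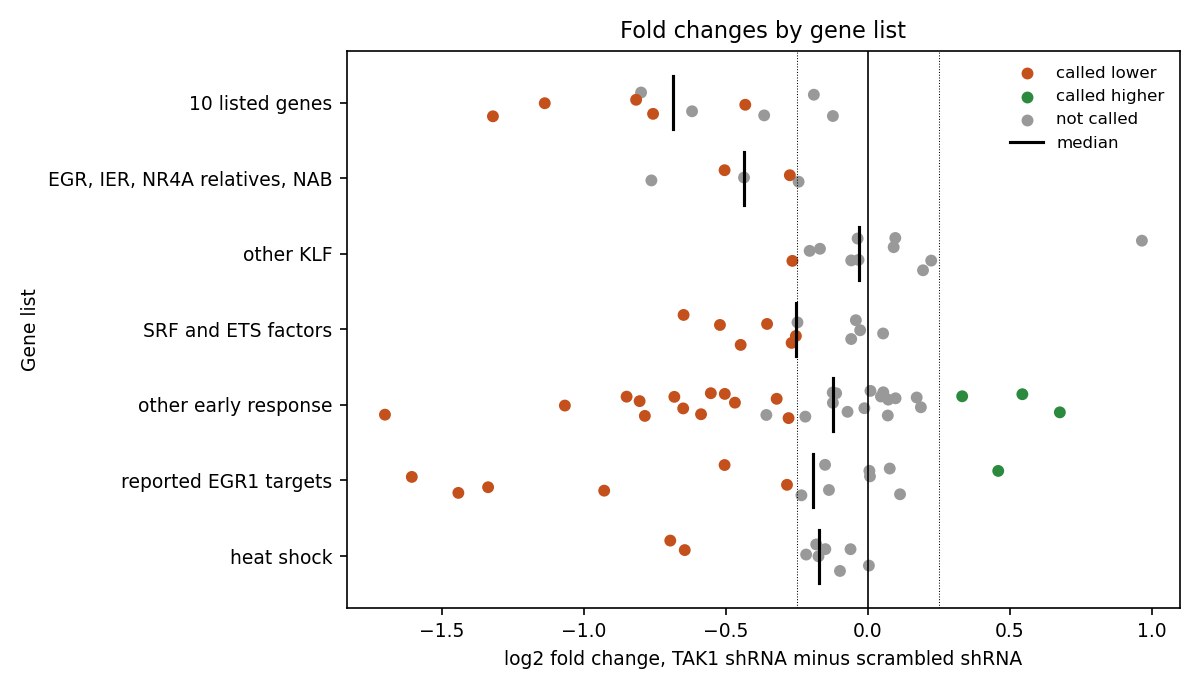
Log2 fold change (TAK1 shRNA minus scrambled shRNA) of each tested gene in 7 lists, with a black bar at the list median and dotted lines at the fold threshold of 0.25. All points of the 10 genes lie below 0, with a median of -0.69, whereas the other KLF genes lie on both sides of 0 and early response genes called higher are seen in the list of other early response genes.

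The genes whose profile over the 6 libraries was most like that of EGR1, among those with a mean of at least 10 CPM, were EMP1, SOX9 and MME. The root mean square difference of their centred log2 CPM from that of EGR1 was 0.057 for EMP1 (a membrane protein), 0.067 for SOX9 (a chondrogenic transcription factor) and 0.075 for MME (the endopeptidase neprilysin). EMP1 had 146 ± 3.66 against 54.9 ± 3.79 CPM (SD, n = 3), SOX9 26.4 ± 0.612 against 11.1 ± 0.612 CPM, and MME 35.9 ± 1.48 against 14.7 ± 0.293 CPM. With 2 groups, likeness to EGR1 rests mainly on a similar step between them.

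Myogenic markers kept a similar summed level, although 5 of 6 tested markers were higher in knockdown cells without overlap. That held for 21.6% of all genes tested. CHRNA1, the most abundant of these markers, went from 921 CPM in control to 700 CPM in knockdown cells. Leukocyte, epithelial and endothelial markers were low apart from KRT18. The summed level of 8 myogenic markers was 1885 to 1916 CPM in scrambled and 1803 to 1916 CPM in TAK1 shRNA libraries. Of 6 tested, 3 were called higher (MYOD1 0.37, MYOG 0.27, MYMK 0.98 on the log2 scale) and CHRNA1 lower (-0.40). Over all genes tested the shares were 11.8% higher and 11.3% lower. MYOG lost its call without scrambled replicate 1 (0.24) or TAK1 shRNA replicate 1 (0.24). The 6 leukocyte markers summed to 0.259 to 0.730 CPM in scrambled and 0.242 to 0.623 CPM in TAK1 shRNA libraries, with CD3E at 0 reads. The 6 epithelial markers summed to 56.4 to 62.8 against 27.7 to 31.1 CPM, nearly all from KRT18 (-1.09, edgeR adjusted p = 5.20e-12), with CDH1 and KRT19 at 0, and the 5 endothelial markers to 2.98 to 3.65 against 1.78 to 2.75 CPM, with CDH5 and KDR at 0. The part of these markers in the changes of the 10 genes was not tested.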

How the data were processed

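RNA from RD cells was sequenced in 6 libraries (3 scrambled shRNA, 3 TAK1 shRNA), which were grouped by their titles. The authors filtered adaptor and low-quality reads, aligned the rest to GRCh38 with STAR after CASAVA base calling, and deposited raw counts per gene without normalization. The counting program, annotation and strand use are not given in the sources used here. Counts were fitted with edgeR 4.0.16 in R 4.3.3 (default expression filter, trimmed mean of M-values, quasi-likelihood test) and p-values were adjusted by Benjamini-Hochberg over 15935 genes, with calls at an adjusted p below 0.05 if the log2 fold change was 0.25 or more in size. The standard error was |log2 fold change| over the root of F. DESeq2 1.42.0, limma 3.58.1 (voom) and further settings were alternatives. The common biological coefficient of variation was 5.67%, and tested genes held at least 99.9% of counts. Scripts were tested on simulated data. Structures came from GENCODE 44 and promoters from RefSeq (GRCh38.p14). Named genes are the 10 genes, MAP3K7, the called genes of each list (where more than 6, the 3 highest and 3 lowest), and the 3 profiles most like EGR1. Uncalled relatives, SRF, ELK1 and ELK4 were named after their values were seen. Some genes that the rule names are not reported here. The members and lists were chosen with earlier results of these data known.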

Additional observations from a re-analysis of the deposited data

How the results depend on the processing

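Of the 10 genes, 5 were called lower under the other tools, normalizations and filters. The count was 4 at a fold threshold of 0.5 (IER5 lost), 6 without a fold threshold (KLF10 gained) and 5 to 6 when leaving out each library, and 0 genes were called higher under all of these. The filter of 10 counts in every library left EGR2 and EGR3 untested. When leaving out each library EGR1 ran from -1.37 to -1.25, KLF4 from -1.30 to -1.003, EGR2 from -0.85 to -0.34, EGR3 from -1.14 to -0.48, IER3 from -0.297 to 0.0216 and SRF from -0.102 to 0.0238. With library size alone SRF turned to 0.0216 and ELK1 to 0.0063, and SRF was 0.0016 without scrambled replicate 1.

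Over all genes the calls went from 1805 lower and 1879 higher to 680 and 735 at a fold threshold of 0.5, and to 2734 and 2569 without one. At 0.5 the lists kept 1 relative or corepressor, 0 other KLF genes and 2 SRF and ETS factors called lower, and 0 EGR1 target genes called higher, whereas without a fold threshold 5 heat shock and 2 other KLF genes were called lower and 1 other KLF gene higher. Relatives and corepressors called lower numbered 1 with library size alone and without scrambled replicate 1. Other KLF genes called lower numbered 0 with upper-quartile normalization, library size alone and without TAK1 shRNA replicate 2, and 2 without scrambled replicate 3 or TAK1 shRNA replicate 1.

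Samples that share a replicate number had correlated deviations of 0.092, 0.056 and 0.035, none above 0.1, so the numbers were not taken as pairs, although 5 of 6 samples correlated best with their own number. With a replicate block, 5 of the 10 genes were called lower and 0 higher, and the calls over all genes were 1848 lower and 1942 higher. EGR2, EGR3 and NR4A1 had few reads and wide intervals that included 0, so a change could not be told from no change.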
